A study of Arabidopsis thaliana with 6 samples.

Results

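Expansins are secreted wall proteins of Arabidopsis thaliana, and their 35 genes were compared here between seedlings of the cbe1 mutant and of the wild-type accession Col0. The 35 genes were taken by gene identifier from a deposited table of 33557 genes. By name they fall into 25 alpha-expansins (EXPA), 6 beta-expansins (EXPB), 3 expansin-like A genes (EXLA) and 1 expansin-like B gene (EXLB1), and all 35 have a name in the RefSeq annotation. The rule uses names, not expression. Poly(A) RNA was sequenced from 3 libraries of cbe1 and 3 of Col0, each from whole seedlings that grew for 7 days on plates with 1% sucrose in 16 hours of light and 8 hours of darkness. The mutated gene CBE1, short for Conserved Binding of eIF4E 1, encodes a partner of eIF4E, the initiation factor that holds the 5′ cap of mRNAs. The sources used here do not give the kind of mutation in cbe1, the number of mutant lines or the hour of harvest.

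Expansins loosen the plant cell wall. They act best at acidic pH and let cellulose microfibrils creep under turgor without cutting the wall polymers, so that the cell can enlarge. Alpha-expansins act on the walls of dicots, while the beta-expansin family is known from the pollen allergens of grasses; no wall-loosening activity is established for the expansin-like proteins. In the acid growth pathway, auxin raises SAUR proteins, which hold back PP2C.D phosphatases and so keep the plasma membrane proton pumps (AHA) active, and the acid wall activates expansins.

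All levels are FPKM, which are fragment counts scaled to transcript length and library size, and the authors give 1 value per genotype. There is no value per library, so no spread between replicates and no depth can be shown. Fold changes are log2 of cbe1 over Col0 without a pseudocount. A gene was called when the authors' table marks it as tested and its q-value is below 0.05. Dividing the fold change by the authors' test statistic gives the standard error (SE) that the statistic implies, and from it a 95% interval. Of 22303 tested genes, 1.63% were called lower and 3.31% higher in cbe1. For the 18727 tested genes of at least 1 FPKM on average, the median fold change was 0.17, or 1.13-fold higher in cbe1. The CBE1 transcript (AT4G01290) had 4.48 FPKM in cbe1 and 13.8 FPKM in Col0 (log2 −1.62, q = 1.41e-12 in the authors' deposited table), so the genotype labels match the level of this gene. Of 4 genes of green tissue, 2 were tested and abundant in both genotypes: LHCA1, of the photosystem I antenna, had 5563 FPKM in cbe1 and 5615 FPKM in Col0, and RBCS1B, a small subunit gene of Rubisco, had 1388 FPKM in cbe1 and 1403 FPKM in Col0. The other 2, RBCS1A and LHCB1.3, were marked by the authors as having too much data to quantify and carry no usable value.

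Of 25 tested expansins, 3 fell and 0 rose in cbe1, and 18 had a fold change below 0, against 30.8% of all tested genes below 0. The 3 that fell were EXPA3, EXPA11 and EXPB3. The median over the tested members was −0.29, beside 0.18 over all tested genes. Summed over the 35 genes, expansin transcripts came to 667 FPKM in cbe1 and 923 FPKM in Col0, so cbe1 had 72.2% of the Col0 sum. The direction depends on the scaling: set against the summed FPKM of nuclear protein-coding genes, of which the short gene AT2G01021 held 52.6% in cbe1 and 85.9% in Col0, every fold change shifts up by 1.76 log2 units. On that scale 0 expansins were called lower and 24 higher, where 0.0897% of all tested genes were lower and 88.9% higher. Over such genes of at least 300 bases, a setting added after seeing the data, the shift was 0.0013. All 25 members then kept direction and call. All directions below are on the authors' own scale. In whole seedlings, fewer cells of a type and less RNA per cell cannot be told apart.

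**Figure D1:**
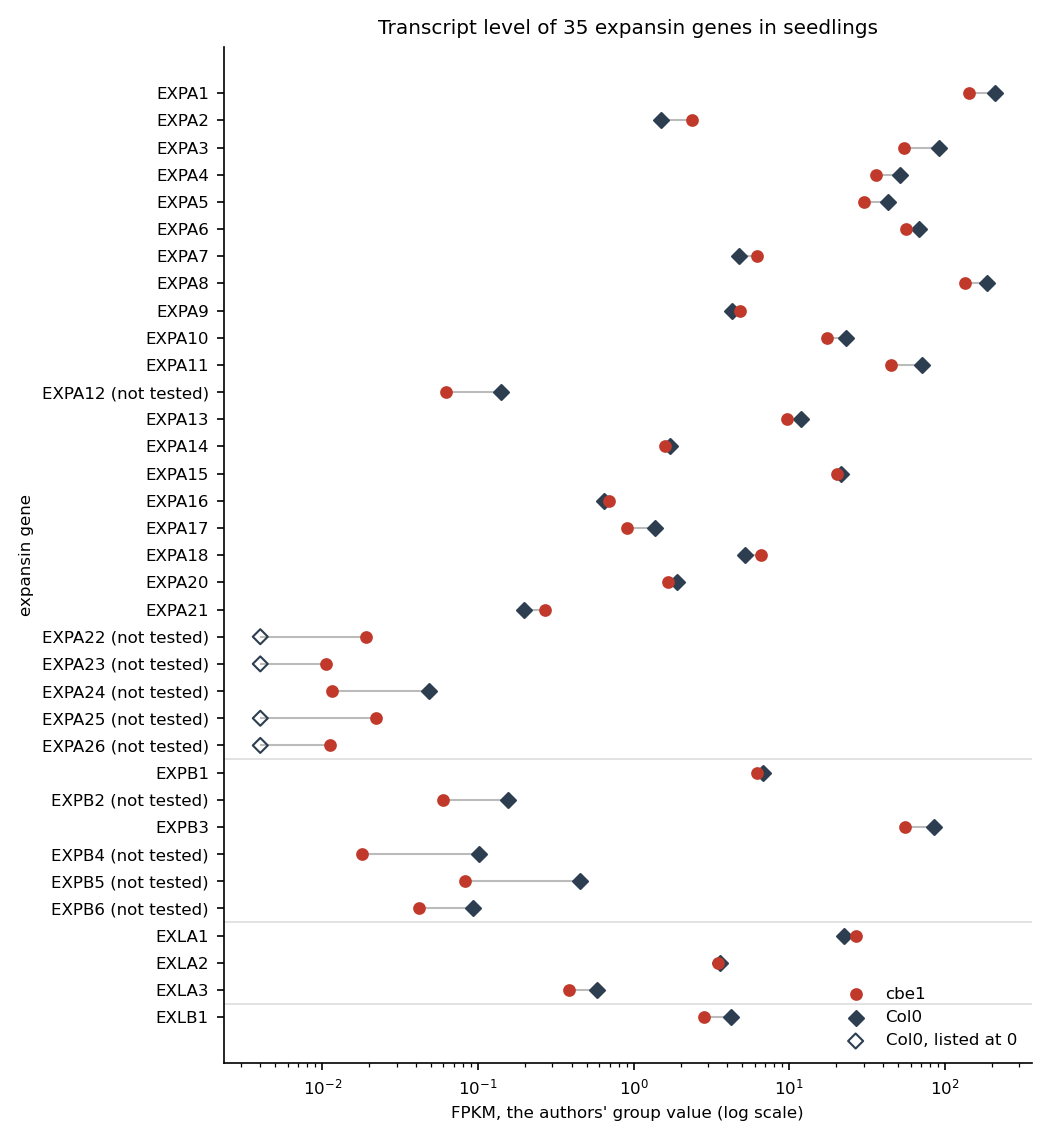
Transcript level of the 35 expansin genes as FPKM on a log axis, one row per gene, with the cbe1 value as a circle and the Col0 value as a diamond. Open diamonds mark 4 genes listed at 0 in Col0, drawn at the left edge because a log axis has no 0. For EXPA1, with 143 FPKM in cbe1 and 210.0 FPKM in Col0, and for most other genes at the right of the plot the circle lies left of the diamond.

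EXPA1 and EXPA8 were the most abundant members and together held 41.7% of the family's FPKM in cbe1 and 43.0% in Col0. EXPA1 (AT1G69530, chromosome 1, 26141836 to 26143500, TAIR10), which is known to act in guard cells among other tissues, had 143 FPKM in cbe1 and 210.0 FPKM in Col0. Its log2 fold change was −0.55 (SE 0.19, 95% interval −0.92 to −0.19), and at q = 0.0577 in the authors' deposited table it just missed the threshold. EXPA8 (AT2G40610, chromosome 2, 16948863 to 16950557) had 135 FPKM in cbe1 and 187 FPKM in Col0. Its log2 fold change was −0.47 (SE 0.18, 95% interval −0.81 to −0.12) with q = 0.106 in the authors' deposited table. Both were lower in cbe1 at an unadjusted p below 0.05 (p = 0.00309 for EXPA1 and 0.00799 for EXPA8 in the authors' deposited table), and neither was called.

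EXPA3 showed the largest fall among the tested members. This alpha-expansin gene (AT2G37640, chromosome 2, 15787705 to 15789853) had 54.3 FPKM in cbe1 and 91.5 FPKM in Col0, so cbe1 had 59.4% of the Col0 level. Its log2 fold change was −0.75 (SE 0.17, q = 0.00126 in the authors' deposited table). Only 5.07% of all tested genes had a lower fold change than EXPA3. EXPA11 (AT1G20190, chromosome 1, 6998489 to 6999817) had 44.9 FPKM in cbe1 and 71.5 FPKM in Col0. Its log2 fold change was −0.67 (SE 0.18, q = 0.00651 in the authors' deposited table). For EXPA11 the level in cbe1 was 62.9% of that in Col0.

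Among the beta-expansins the transcripts came almost wholly from EXPB3 (AT4G28250, chromosome 4, 14000038 to 14002069). It had 55.5 FPKM in cbe1 and 84.6 FPKM in Col0, and its log2 fold change was −0.61 (SE 0.18, q = 0.0187 in the authors' deposited table). EXPB1, the next in level, had 6.17 FPKM in cbe1 and 6.76 FPKM in Col0 (log2 −0.13, 95% interval −0.65 to 0.38, q = 0.875 in the authors' deposited table). The intervals of EXPB3 and EXPB1 overlap, and a difference between the fold changes of the 2 genes was not tested. The coding sequences of EXPB1 and EXPB3 are each other's closest within the family, with 78.4% of aligned bases equal.

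For these 3 genes, the 250 bases just before each RefSeq gene start are given 5′ to 3′ on the strand of the gene. The assembly is TAIR10.1, with nuclear chromosomes as in TAIR10. These starts lie upstream of the deposited intervals above, for EXPA3 at 15790139 against a deposited end of 15789853. Windows before the deposited starts were not searched. Capitals mark a match to one of 5 motifs on either strand: the G-box CACGTG, the auxin response element TGTCTC, the brassinosteroid response elements CGTGTG and CGTGCG, and the evening element AAAATATCT.
EXPA3, chr2:15790140-15790389, minus strand: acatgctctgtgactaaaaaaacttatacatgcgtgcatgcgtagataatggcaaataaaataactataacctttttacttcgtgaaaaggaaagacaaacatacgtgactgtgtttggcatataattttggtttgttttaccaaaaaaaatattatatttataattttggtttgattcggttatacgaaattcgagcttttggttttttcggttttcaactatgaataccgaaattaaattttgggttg
EXPA11, chr1:6999840-7000089, minus strand: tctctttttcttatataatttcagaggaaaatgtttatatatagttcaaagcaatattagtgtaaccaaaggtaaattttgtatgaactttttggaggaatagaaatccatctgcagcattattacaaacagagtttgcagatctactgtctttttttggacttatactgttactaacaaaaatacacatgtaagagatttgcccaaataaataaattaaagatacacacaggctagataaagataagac
EXPB3, chr4:14002125-14002374, minus strand: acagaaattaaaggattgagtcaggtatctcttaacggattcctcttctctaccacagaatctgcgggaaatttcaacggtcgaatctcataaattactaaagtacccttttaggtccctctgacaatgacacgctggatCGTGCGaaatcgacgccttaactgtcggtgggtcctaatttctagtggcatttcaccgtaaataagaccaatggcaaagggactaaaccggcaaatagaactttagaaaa
Only the window of EXPB3 holds a match, to CGTGCG, which 1.56% of 27431 upstream windows of protein-coding genes hold. Over all 35 members, 4 windows hold TGTCTC (EXPA5, EXPA6, EXPA7 and EXPA10; 10.9% of all windows), 4 hold CGTGTG (EXPA1, EXPA2, EXPA6 and EXLA2; 5.36%), 3 hold CGTGCG (EXPA7, EXPA18 and EXPB3), 1 holds CACGTG (EXPB2; 6.49%) and 0 hold AAAATATCT (2.36%). The looser E-box CANNTG, which every CACGTG also matches, is in 23 of the 35 windows and in 55.3% of all windows. Of the 8 members lower in cbe1 at an unadjusted p below 0.05, 2 hold TGTCTC, 1 holds CGTGTG, 1 holds CGTGCG and 5 hold CANNTG. These are matches of letters in a short window and are no evidence of a bound site.

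**Figure D2:**
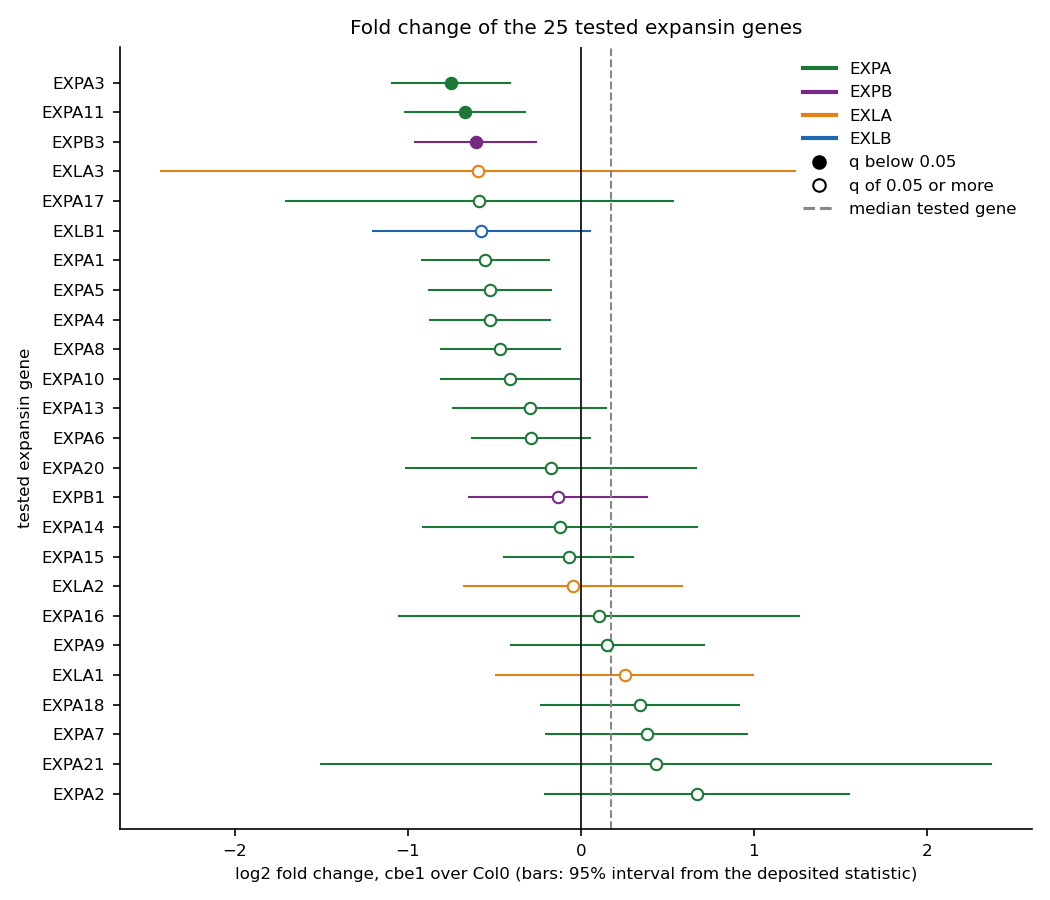
Log2 fold change, cbe1 over Col0, of the 25 tested expansin genes, ordered by value, with bars for the 95% interval from the authors' statistic; filled points have a q-value below 0.05 and the dashed line is the median tested gene of at least 1 FPKM. EXPA3, EXPA11 and EXPB3 are filled, and the bars of EXPA1, EXPA4, EXPA5, EXPA8 and EXPA10 also lie below 0.

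A further 3 alpha-expansins had lower values in cbe1 at an unadjusted p below 0.05 without a call. EXPA4 had 36.0 FPKM in cbe1 and 51.7 FPKM in Col0 (log2 −0.52, SE 0.18, p = 0.00299 and q = 0.0563 in the authors' deposited table). EXPA5, a growth-related gene that brassinosteroid raises, had 29.98 FPKM in cbe1 and 43.2 FPKM in Col0 (log2 −0.53, SE 0.18, p = 0.00331 and q = 0.0605 in the authors' deposited table). EXPA10, known for its part in leaf and petiole growth, had 17.4 FPKM in cbe1 and 23.05 FPKM in Col0 (log2 −0.41, SE 0.20, p = 0.0453 and q = 0.285 in the authors' deposited table). With EXPA1, EXPA8 and the 3 calls, 8 of 25 tested members were lower at this unadjusted threshold and 0 were higher, while 4.2% of all tested genes were lower and 12.5% higher.

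The members split by abundance. Of 12 members with a mean of at least 10 FPKM, 3 were called lower, where 2.76% of all tested genes of that abundance were lower and 5.34% higher. At an unadjusted p below 0.05, 8 of the 12 were lower and 0 higher, beside 6.67% lower and 18% higher of all. The fold change was below 0 in 11 of them, beside 31.6% of the 7871 tested genes of that abundance with a fold change. Their median was −0.50, beside 0.15. The 10 alpha-expansins of this abundance all had lower values in cbe1. Closest to no difference were EXPA6 (55.8 FPKM in cbe1 and 68.0 FPKM in Col0), EXPA15 (20.3 FPKM in cbe1 and 21.3 FPKM in Col0) and EXPA13 (9.61 FPKM in cbe1 and 11.8 FPKM in Col0). EXPA13 reached this mean only through its higher Col0 value, and it is among the 11 counted below 0. Of the 13 tested members below 10 FPKM, 0 were called, 7 lay below 0 and 6 above, and the sum was 37.9 FPKM in cbe1 and 36.7 FPKM in Col0. Across the 25 tested members, fold change and log2 mean FPKM had a Spearman correlation of −0.44 (Pearson −0.48), and across 21932 tested genes one of −0.09 (Pearson −0.08). This is a description only, since both measures come from the same group values. A given fold change also passes less easily at low level: the SE was 0.17 to 0.19 for EXPA1 and EXPA3 and 0.99 for EXPA21.

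**Figure D3:**
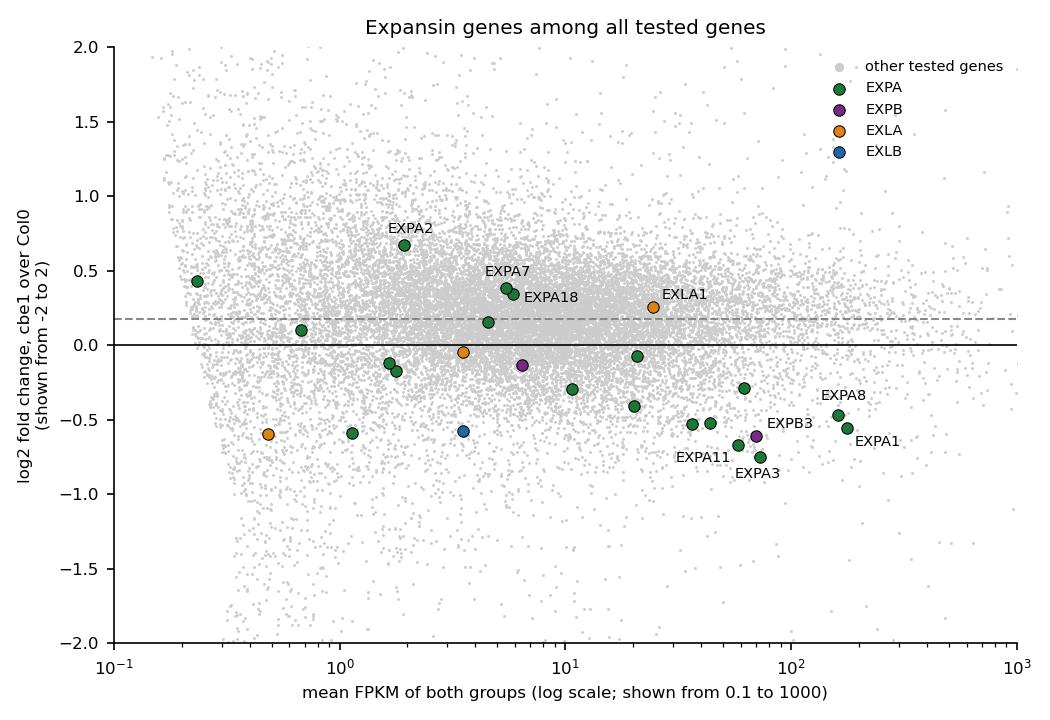
Log2 fold change, cbe1 over Col0, against mean FPKM on a log axis for tested genes (grey) and the tested expansins (coloured by subfamily); the dashed line is the median, 0.17, of tested genes of at least 1 FPKM. Expansins at 10 FPKM and above lie below 0 except EXLA1, while those at lower level lie on both sides of 0.

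The middle and low range held members on both sides. EXPA9 had 4.78 FPKM in cbe1 and 4.30 FPKM in Col0. EXPA2, which is known from seed germination, had 2.37 FPKM in cbe1 and 1.49 FPKM in Col0, the largest positive fold change among tested members (log2 0.67, 95% interval −0.21 to 1.55), and was not called. EXPA20 had 1.67 FPKM in cbe1 and 1.88 FPKM in Col0. Its deposited interval overlaps the long noncoding gene AT4G38215, and the sources used here do not give the strand setting, so reads of the 2 genes cannot be told apart. EXPA14 and EXPA17 are known targets of the lateral root pathway; they had 1.58 and 0.908 FPKM in cbe1 and 1.72 and 1.36 FPKM in Col0, and neither was called. EXPA16 had 0.698 FPKM in cbe1 and 0.649 FPKM in Col0, and EXPA21 had 0.268 FPKM in cbe1 and 0.199 FPKM in Col0.

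EXPA7 and EXPA18 are the expansins of growing root hairs. EXPA7 (AT1G12560) had 6.16 FPKM in cbe1 and 4.73 FPKM in Col0, and EXPA18 (AT1G62980) had 6.57 FPKM in cbe1 and 5.18 FPKM in Col0. The values in cbe1 were 130.3% of Col0 for EXPA7 and 127% for EXPA18. The log2 fold changes were 0.38 (95% interval −0.20 to 0.96) and 0.34 (−0.23 to 0.92), and neither was called (q = 0.573 and 0.624 in the authors' deposited table). Both intervals hold 0 as well as the 0.17 of the median gene, so neither a rise nor the absence of one is shown. These statistics were picked for print after the values were seen.

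A root hair element, a motif described in the promoter of EXPA7, was looked for by its consensus in the 250-base windows of all members. It is shown for EXPA7 and EXPA18, the only members with a match. Since the motif was described in EXPA7, the match there is no independent finding. The sources used here do not say whether the EXPA18 promoter also served to define the consensus. The match in EXPA18 is therefore not taken as independent either. The match is in capitals, and the bases around it in lower case.
EXPA7, chr1:4276421-4276449, plus strand: aaaaggATAGTGATCCGCACGTAgccacc
EXPA18, chr1:23331516-23331545, plus strand: caaaacaAACATGAACGCACGTCcattact
The match ends 61 bases before the RefSeq start of EXPA7 and 24 bases before that of EXPA18, on the strand of the gene in both. The other 33 members hold no match in this window, and 0.755% of the 27431 windows do. Each match contains CGCACG, which is CGTGCG read on the other strand, so the count of CGTGCG in EXPA7 and EXPA18 given above overlaps with it. This motif was added after the values were seen. The 250-base window of EXPA18 also holds exon bases of the annotated gene AT1G62978.

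Among the expansin-like genes no call was made. EXLA1 (AT3G45970, chromosome 3, 16896166 to 16898013) was the most abundant, with 26.7 FPKM in cbe1 and 22.4 FPKM in Col0 (log2 0.25, 95% interval −0.49 to 0.99, q = 0.814 in the authors' deposited table). It was the only member above 10 FPKM with a positive fold change. Its implied SE of 0.38 lay above the 95th percentile (0.34) of tested genes with 10 to 30 FPKM, whose median was 0.21. The deposited interval of EXLA1 overlaps the histone H2B gene HTB9 (AT3G45980), and whether reads of the 2 genes were kept apart was not tested. EXLA2 had 3.48 FPKM in cbe1 and 3.59 FPKM in Col0 (log2 −0.04, 95% interval −0.68 to 0.59, q = 0.972 in the authors' deposited table). EXLA3 had 0.382 FPKM in cbe1 and 0.578 FPKM in Col0. EXLB1 (AT4G17030) had 2.84 FPKM in cbe1 and 4.24 FPKM in Col0 (log2 −0.57, 95% interval −1.20 to 0.05, p = 0.0729 and q = 0.360 in the authors' deposited table). The 3 EXLA coding sequences are alike, with 82.8% to 86.6% of aligned bases equal, and EXLA3 and EXLA1 lie 2265 bases apart on chromosome 3.

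A further 10 members were too low for the authors' test, and together these genes made up 0.338 FPKM in cbe1 and 0.993 FPKM in Col0. They include EXPA12 (0.0624 FPKM in cbe1 and 0.140 FPKM in Col0) and 4 of the 6 beta-expansins. EXPB5 had 0.0820 FPKM in cbe1 and 0.455 FPKM in Col0, the highest of the untested members, and EXPB2 had 0.0594 FPKM in cbe1 and 0.155 FPKM in Col0. EXPB4 had 0.0181 FPKM in cbe1 and 0.102 FPKM in Col0, and EXPB6 had 0.0421 FPKM in cbe1 and 0.0931 FPKM in Col0. At such levels no direction can be read. EXPB2 and EXPB6 are direct neighbours on chromosome 1, with 475 bases between them, and the coding sequence of EXPB6 is closest to that of EXPB4 (87.4% of 669 aligned bases equal).

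The other 5 untested genes belong to a cluster of 6 alpha-expansins, EXPA21 to EXPA26, which fills 14137 bases of chromosome 5 (15726378 to 15740514) with no other gene of the table wholly between them. EXPA22, EXPA23, EXPA25 and EXPA26 were listed at 0 in Col0 and had 0.0192, 0.0105, 0.0221 and 0.0112 FPKM in cbe1, so no fold is given. EXPA24 had 0.0115 FPKM in cbe1 and 0.0483 FPKM in Col0. The cluster as a whole came to 0.343 FPKM in cbe1 and 0.247 FPKM in Col0, most of it from EXPA21. The cluster holds 2 pairs of near copies: EXPA22 and EXPA26 share 97.7% of 840 aligned coding bases, and EXPA23 and EXPA25 share 97.5% of 828. EXPA21 and EXPA24 stand further off, with at most 79.9% (to EXPA25) and 77.4% (to EXPA23) of aligned bases equal. The sources used here do not say how reads that match both copies of a pair were assigned, so the split within each pair is uncertain. Outside this cluster the closest pair of alpha-expansins was EXPA4 and EXPA16, with 81.1% of aligned bases equal.

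The 7 members called under another centring show how close the threshold was. With the authors' statistic moved so that the median gene of at least 1 FPKM has no change, EXPA1, EXPA4, EXPA5 and EXPA8 joined EXPA3, EXPA11 and EXPB3, which makes 7 of 25 called lower and 0 higher, while 2.99% of all tested genes were then called lower and 1.33% higher. All 7 are among the 12 members of at least 10 FPKM, an abundance at which 5.34% of tested genes were then lower and 2.16% higher. Relative to the median gene the log2 fold changes of these 7 lay between −0.93 for EXPA3 and −0.64 for EXPA8. EXPA10, with 23.05 FPKM in Col0, stayed uncalled (q = 0.0808). The root hair pair EXPA7 and EXPA18 lay at 0.21 and 0.17 on this scale. EXPA9 and EXPA16 changed sign, to −0.02 and −0.07, so that 20 members lay below 0 and 5 above.

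Other genes of acid growth were set beside the expansins. The SAUR19 subfamily holds small auxin-induced proteins that act upstream of the proton pumps. All 6 tested genes had values below 0 and 2 fell, beside 1.63% of all tested genes called lower. The median of the 6 was −0.81, beside 0.18 over all tested genes. SAUR23 had 11.1 FPKM in cbe1 and 22.1 FPKM in Col0 (log2 −0.995, q = 0.0103 in the authors' deposited table). SAUR21 had 34.3 FPKM in cbe1 and 59.8 FPKM in Col0 (log2 −0.80, q = 0.00803 in the authors' deposited table). The 6 genes are neighbours of similar sequence and need not be independent. Of 9 tested PP2C.D phosphatase genes 0 were called (median 0.02). PP2C.D6, their most abundant gene, had 34.3 FPKM in cbe1 and 37.1 FPKM in Col0, and PP2C.D5 had 29.5 FPKM in cbe1 and 27.3 FPKM in Col0. Of 9 tested proton pump genes 0 were called. At an unadjusted p below 0.05, 2 of the 9 were higher, beside 12.5% of all tested genes. The main pumps AHA2 (96.3 FPKM in cbe1 and 85.8 FPKM in Col0) and AHA1 (85.4 FPKM in cbe1 and 86.3 FPKM in Col0) were not among them, and the median was 0.17.

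The XTH family of xyloglucan endotransglucosylases, enzymes that cut and rejoin the hemicellulose between microfibrils, held 30 genes by RefSeq symbol. Of the 26 tested, 5 fell and 0 rose, beside 1.63% lower and 3.31% higher of all tested genes. The family median was −0.17, beside 0.18 over all tested genes. XTH7, the largest fall, had 218 FPKM in cbe1 and 399.9 FPKM in Col0 (log2 −0.88), and XTH32, XTH31 and XTH8 lay at −0.73, −0.72 and −0.68. Summed, XTH transcripts in cbe1 were 71.9% of those in Col0, beside 72.2% for the expansins. A difference between the 2 families was not tested.

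Root and seed genes were set beside the expansins as well. Of 8 tested root hair genes 1 rose and 0 fell, beside 3.31% higher and 1.63% lower of all tested genes. The median of the 8 was 0.61, beside 0.18 over all tested genes. At an unadjusted p below 0.05, 2 of the 8 were higher, beside 12.5% of all tested genes. LRX1, a leucine-rich repeat extensin of the hair wall, had 5.63 FPKM in cbe1 and 3.05 FPKM in Col0 (log2 0.88, q = 0.00997 in the authors' deposited table). The most abundant of the list, the proline-rich wall protein gene PRP3, had 23.3 FPKM in cbe1 and 20.5 FPKM in Col0. The call of LRX1 was lost when centred on the median gene (q = 0.0674). RHD2, an NADPH oxidase of growing hairs, had 1.08 FPKM in cbe1 and 0.545 FPKM in Col0 (p = 0.0109 and q = 0.130 in the authors' deposited table). RSL4, a transcription factor that drives root hair growth, had 1.02 FPKM in cbe1 and 0.829 FPKM in Col0. GL2, also on this list, had 4.75 FPKM in cbe1 and 2.61 FPKM in Col0 (log2 0.86, SE 0.96) and was not called. The median of the list lies between RSL2 (log2 0.35) and GL2. RHD2, RHD6, RSL2 and RSL4 averaged below 1 FPKM. Of 4 tested lateral root regulators 0 were called; ARF7 had 7.12 FPKM in cbe1 and 6.13 FPKM in Col0, and ARF19 had 2.37 FPKM in cbe1 and 2.13 FPKM in Col0. Of 3 general root markers 0 were called. CASP1 had 29.8 FPKM in cbe1 and 19.4 FPKM in Col0 (log2 0.62, p = 0.00924 and q = 0.116 in the authors' deposited table). MYB36 had 2.26 FPKM in cbe1 and 1.56 FPKM in Col0 (log2 0.53, p = 0.176 and q = 0.546 in the authors' deposited table). PYK10 went the other way, with 1583 FPKM in cbe1 and 2440.5 FPKM in Col0 (log2 −0.62, p = 0.0597 and q = 0.328 in the authors' deposited table). The deposited intervals of CASP1, PYK10, ARF7 and GL2 overlap the genes AT2G36090, AT3G09250, AT5G20720 and AT1G79850. Whether reads of overlapping genes were kept apart was not tested. Both tested seed storage protein genes were called, in opposite directions. CRA1, a cruciferin gene, had 53.4 FPKM in cbe1 and 19.0 FPKM in Col0 (log2 1.49, q = 1.76e-10 in the authors' deposited table). SESA1, an albumin gene, had 0.179 FPKM in cbe1 and 3.43 FPKM in Col0 (log2 −4.26, q = 4.59e-05 in the authors' deposited table). The part of tissue make-up in the expansin values was not tested.

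**Figure D4:**
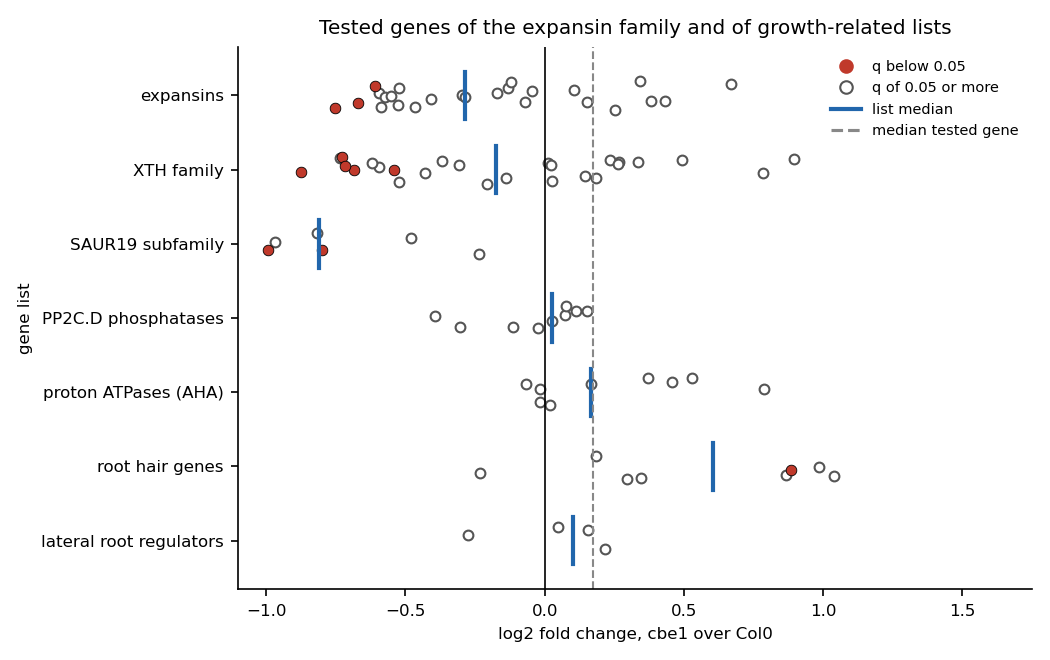
Log2 fold change, cbe1 over Col0, of every tested gene of the expansin family and of 6 growth-related lists, one point per gene (vertical scatter within a row has no meaning), with filled points for q-values below 0.05 and a bar for the list median. The SAUR19 bar at −0.81 and the expansin bar at −0.29 lie left of 0, and the root hair bar at 0.61 lies right of the dashed line, the median tested gene of at least 1 FPKM.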

How the data were processed

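Poly(A) RNA of 3 cbe1 and 3 Col0 libraries was processed with TopHat and Cuffdiff against TAIR10, per the submitters' processing notes. The sources used here give no versions, annotation, library scaling or strand setting. The deposited FPKM are 1 value per genotype by the authors, so depth is unknown and there is no replicate value. The authors' table also holds a statistic (a score opposite in sign to the fold change), a p-value and a q-value. The deposited p-value lay within 2.74e-06 of a normal p (both sides) of that statistic, and the q-value within 2.46e-06 of Benjamini-Hochberg values over the 22303 tested genes.

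Fold changes, implied SE and 95% intervals (normal) were computed with Python 3.11.15, numpy 2.4.6, pandas 2.3.3 and scipy 1.17.1, and coding sequences were aligned with Biopython 1.88. Deposited starts count from 0 and are given here from 1. Sequences are RefSeq TAIR10.1, in which 32798 nuclear genes of the table were found and 99.997% overlapped their deposited interval. The lower coordinate of the gene was the same in 39.0%. Protein features were not analysed here. Libraries within a genotype are labelled as biological replicates.

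Members and gene lists were chosen with earlier results of these data known. Every member is named with its FPKM. Statistics are given for tested members with a q-value or unadjusted p below 0.05 and the 2 most abundant tested of each subfamily (1 for EXLB). From each further list up to 4 calls are named, filled to 2 with the most abundant. Other names or statistics (EXPA2, EXPA7, EXPA18, RHD2, RSL4, GL2 and MYB36) were chosen after values were seen. So were the positions relative to all genes and the statistics of CASP1, PYK10 and MYB36. The split at 10 FPKM was not planned in advance. Alternatives were a q-value of 0.01, a size limit of 1 on the log2 fold change, an FPKM minimum of 1, pseudocounts of 1 and 0.1, recentring on the median gene or on a summed FPKM, and members alone on their locus.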

Additional observations from a re-analysis of the deposited data

How the results depend on the processing

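No paired analysis was possible because the file holds 1 value per genotype, and for the same reason leaving out a replicate could not be run. The 3 lower calls among expansins held at a mean FPKM of at least 1 (4 calls, with EXPA4 at q = 0.0491, recomputed from the deposited p-values) and among the 23 tested members alone on their locus (3 calls). At a q-value of 0.01 there were 2 (EXPB3 lost), 1 in the SAUR19 list and 2 in the XTH list. Under a size limit of 1 on the log2 fold change there were 0 lower expansin, 0 SAUR19 and 0 XTH calls and 0 higher root hair calls. Recentred on the median gene, 7 expansins were lower and 0 root hair genes were higher; EXPA9 (−0.02) and EXPA16 (−0.07), neither called, changed sign. Pseudocounts of 1 and 0.1 turned no member's sign; they give no new test.

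Recentred on the summed FPKM of nuclear protein-coding genes, every log2 value rises by 1.76. Of all tested genes, 0.0897% were then called lower and 88.9% higher. One gene of 102 bases, AT2G01021, held 52.6% of that sum in cbe1 and 85.9% in Col0, so this setting mostly follows that gene. It gave 0 lower and 24 higher expansin calls, medians of 1.47 (all and EXPA), 1.39 (EXPB), 1.71 (EXLA) and 1.18 (EXLB), 0 lower calls in the SAUR19 and XTH lists, and 9 (AHA), 5 (SAUR19), 9 (PP2C.D), 8 (root hair), 4 (lateral root) and 24 (XTH) higher ones. Reversed values were EXPA1 1.204, EXPA3 1.01, EXPA4 1.23, EXPA5 1.23, EXPA6 1.47, EXPA8 1.29, EXPA10 1.35, EXPA11 1.09, EXPA13 1.46, EXPA14 1.64, EXPA15 1.69, EXPA17 1.17, EXPA20 1.59, EXPB1 1.63, EXPB3 1.15, EXLA2 1.71, EXLB1 1.18, and 0.14 for CBE1. Over genes of at least 300 bases, a setting added after seeing the data, the shift was 0.0013 and all 25 members kept direction and call.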
